A study of Mus musculus with 6 samples.

Results

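Chemokine ligands are small secreted proteins that draw leukocytes along a gradient, and 7 of them that lymphocytes, dendritic cells or macrophages are known to make were followed here in innate lymphoid cells (ILCs) of the mouse lung. The 7 genes, Ccl1, Ccl3, Ccl4, Ccl5, Ccl17, Ccl22 and Xcl1, were taken by symbol from a deposited count table of 14416 genes. The cells were Lin-Thy1.2+ ILCs, lymphocytes without rearranged antigen receptors, sorted from lungs of C57BL/6J mice. One group of 3 samples came from wild-type mice (WT) and the other of 3 samples from Rbm3 knockout mice (RBM3KO), and RBM3 is an RNA-binding protein that is induced by mild cold. Mice of both genotypes had been given 25 µg of the mould allergen Alternaria alternata 3 times over 7 days, so no unchallenged sample serves as a baseline. The sources used here do not give the age of the mice, the knockout allele, the cells in which it acts, or whether a sample is 1 mouse or a pool. If the replicates did not come from separate animals, the p-values stand for the spread of these samples alone, which may be technical.

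Chemokines act through G protein-coupled receptors on the cells they attract. Ccl1 is the ligand of Ccr8, a receptor of type 2 T cells and ILC2s. Ccl3, Ccl4 and Ccl5 are made by activated T cells, NK cells and macrophages, and Ccl3 and Ccl5 act on Ccr1 and Ccl5 also on Ccr3. Ccl17 and Ccl22 are the ligands of Ccr4 and are known mainly as products of dendritic cells and macrophages in allergic tissue. Xcl1, or lymphotactin, comes from NK cells and T cells and acts on Xcr1, the receptor of cross-presenting dendritic cells.

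The fold that gives chemokines their names is visible in the coding sequences, shown here for 6 of the ligands. The names CC and C refer to the first cysteines of the mature protein, which are adjacent in a CC chemokine, while a C chemokine has a lone first cysteine. The stretches below are 30 coding bases of each, 5′ to 3′, from the GENCODE M21 transcripts (GRCm38), and they are shown because they separate Xcl1 from the CC ligands. Capitals mark the in-frame cysteine codons, and codons are counted from 1 at the start codon.
Ccl1: gtctccaatagcTGCTGCttgaacaccttg
Ccl4: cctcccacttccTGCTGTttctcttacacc
Ccl5: gacaccactcccTGCTGCtttgcctacctc
Ccl17: gtaggccgagagTGCTGCctggattacttc
Ccl22: gaagacagtatcTGCTGCcaggactacatc
Xcl1: gaagagagtagcTGTgtgaacttacaaacc
The pair lies at codons 33 and 34 in Ccl1 and Ccl5, at codons 34 and 35 in Ccl4, at codons 36 and 37 in Ccl22 and at codons 43 and 44 in Ccl17. Xcl1 has a lone cysteine codon at position 32, and its only adjacent pair, at codons 12 and 13, lies near the start of the coding sequence, where secreted proteins carry their signal peptide. Ccl3 and Ccl4 were the most alike pair, with 71.4% identity over 273 aligned coding bases and no shared run longer than 9 bases between their transcripts.

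The genes sit in 3 places (mm10, the same assembly as GRCm38). Ccl1 (chr11:82176657-82179812), Ccl5 (chr11:83525778-83530518), Ccl3 (chr11:83647844-83649355) and Ccl4 (chr11:83662584-83664683) lie on chromosome 11, where 13228 bases separate Ccl3 and Ccl4, which are on opposite strands. Ccl22 (chr8:94745590-94751699) and Ccl17 (chr8:94810453-94812036) lie on chromosome 8 with 58753 bases between them, a stretch that holds Cx3cl1. Xcl1 (chr1:164931644-164935527) is on chromosome 1. An exon of it overlaps the span of Gm20743, a noncoding gene on the opposite strand that was not found in the count table. Reads from the overlap could not be told apart by strand in an unstranded library. Whether exons of the pair overlap was not tested. All 7 coding transcripts have 3 exons.

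AU-rich sequences in the 3′ untranslated region (UTR) are known to shorten the life of many chemokine and cytokine mRNAs, and 4 of the 7 ligands carry a TATTTAT heptamer there. The motif was searched on the transcript strand only, and every heptamer also holds the pentamer ATTTA. The lines below give 30 bases of the 3′ UTR around the heptamer, in capitals, for the members that have it.
Ccl3: gtatttgtgacTATTTATtctgaaagactt
Ccl4: attatttctatTATTTATgttttagttata
Ccl22: agctatagttaTATTTATataggaaagagg
Xcl1: ttataagtaataaaTATTTATtattgatga
Ccl3 had 5 ATTTA pentamers in a 3′ UTR of 409 bases, and 0.655% of 1374 tested genes with a 3′ UTR between 0.7 and 1.3 times as long had at least as many. Ccl4 had 2 in 302 bases, Ccl22 2 in 1813 bases and Xcl1 1 in 141 bases. For these the share of tested genes of similar 3′ UTR length with at least as many was 11.1%, 68.9% and 22.7%, in that order. The heptamer was present in 10.6%, 8.50%, 36.1% and 4.91% of tested genes with a 3′ UTR of similar length to that of Ccl3, Ccl4, Ccl22 and Xcl1. Neither motif was found in the 3′ UTRs of Ccl1, Ccl5 and Ccl17, at 167, 199 and 183 bases. Members with the heptamer had genotype estimates in both directions, and a match is only a match of letters.

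The libraries held 7498247 to 25068137 counts, and 11382 genes passed edgeR's filter on low counts, the 7 ligands among them. Rbm3 had at least 3649 counts in each WT library and at most 406 in each RBM3KO library, so all 6 matched their labels. Levels are CPM, the count of a gene relative to the library total after TMM scaling. Differences are log2 fold changes, RBM3KO minus WT, from edgeR's quasi-likelihood test over all tested genes with Benjamini-Hochberg adjustment and a threshold of 0.05. The ILC markers Thy1, Ptprc, Il7r, Gata3, Id2, Rora, Il1rl1 and Klrg1 were present in all 6 libraries. Transcripts of other cells were also present: T cell markers, B cell markers, NK cell and ILC1 markers, and, in 4 libraries, macrophage markers above 190 CPM in sum. Epithelial, endothelial and stromal markers summed to 60.3 CPM in WT replicate 3 and to 326 CPM in RBM3KO replicate 3, the lowest and highest libraries. Sftpc alone stood at 248 CPM in RBM3KO replicate 3. A lineage gate is usually set to leave T cells out, and of their markers Cd3g stood at 145 to 313 CPM, Cd3e at 15.7 to 32.8 CPM and Cd3d at 4.31 to 32.7 CPM, while Cd8a was at 0 in 3 libraries and Cd5 in 4. The 8 T cell markers summed to 176 to 287 CPM of the total count in WT and to 187 to 352 CPM in RBM3KO, with overlap. Of the 6 tested, 0 passed with edgeR, DESeq2 or limma-voom (0 also at an unadjusted p under 0.05), and the median log2 fold change was -0.27. Their part in the ligand values was not tested. The ligand levels are those of the sorted population, and which cell in it made each transcript was not tested.

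None of the 7 ligands passed the test between the genotypes (0 of 7 with edgeR, DESeq2 and limma-voom), where edgeR called 1.25% and DESeq2 3.64% of all tested genes. At an unadjusted p under 0.05 there were 2, Ccl5 and Xcl1, both lower in RBM3KO, where 12.3% of tested genes reached that level. Xcl1 alone had no overlap between the genotypes, lower in RBM3KO, where 18.9% of tested genes were separated in either direction and 10.5% in this one. The estimates were above 0 for Ccl1, Ccl3 and Ccl17 and below 0 for Ccl4, Ccl5, Ccl22 and Xcl1, with a median of -0.07 beside 0.01 over all tested genes. The intervals were narrow enough to bound the change for Ccl1, Ccl5 and Xcl1 and were wide for the other 4 ligands.

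**Figure D1:**
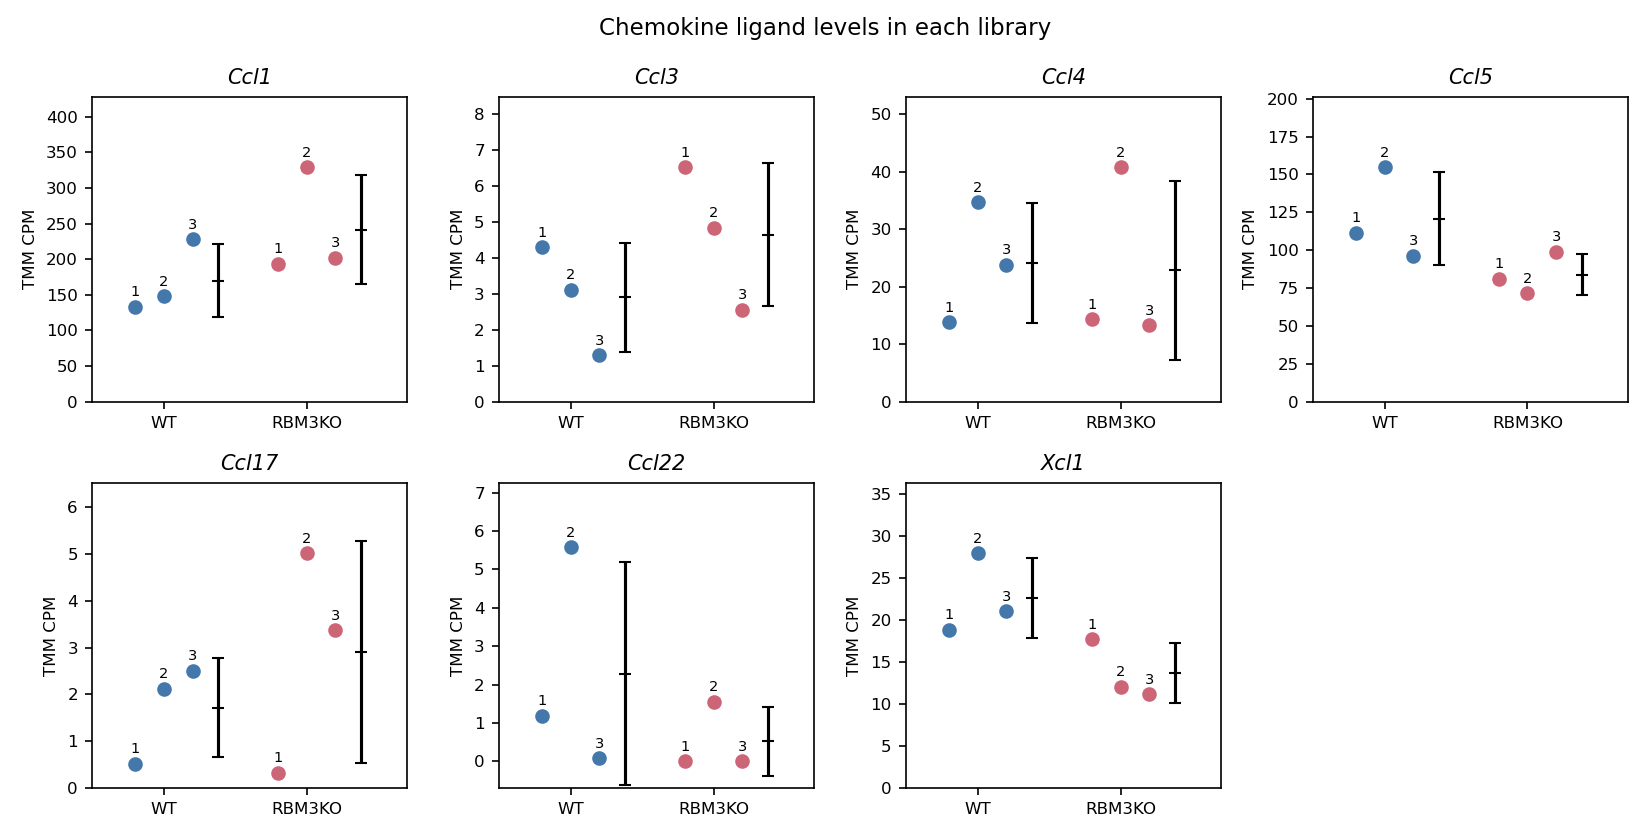
Level of each chemokine ligand in the 6 libraries. The vertical axis is TMM-scaled CPM on a linear scale of its own in each panel, points are libraries with their replicate number, and the black bar is the mean ± SD of the 3 libraries of a genotype. The genotypes overlap in every panel but that of Xcl1, where the lowest WT library stands at 18.8 CPM and the highest RBM3KO library at 17.7 CPM.

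Ccl1, the Ccr8 ligand, had the highest mean over the 6 libraries of the 31 chemokine ligands in the table when levels were set per kilobase of transcript, at 400.3 CPM per kb. It was the highest in 2 of the 6 libraries only, while Cxcl2 was so in 3 and Ccl5 in 1. Its level was 133, 148 and 228 CPM in WT and 194, 330 and 202 CPM in RBM3KO. WT replicate 3 lies above RBM3KO replicates 1 and 3, so the genotypes overlap, and RBM3KO replicate 2 is the highest. The means were 170 ± 51.0 CPM in WT and 242 ± 76.2 CPM in RBM3KO (SD, n = 3 each). This gave a log2 fold change of 0.51 ± 0.23 (SE; adjusted p = 0.413 with edgeR), with a 95% interval from -0.01 to 1.03, that is from 0.996 to 2.04 times the WT level (all intervals are without adjustment for the number of genes). Without RBM3KO replicate 2 it was 0.22, and without WT replicate 3 it was 0.78. Ccl1 varied more between libraries of a genotype than 97.7% of 1663 tested genes whose mean CPM was within 2-fold of its own, on the log2(CPM + 1) scale. The 12 ILC markers summed to 7464, 7399 and 8637 CPM of the total count in WT and to 9739, 9692 and 10202 CPM in RBM3KO, with no overlap. Arg1, Id2 and Areg were the most abundant of them. Of the 12, 0 passed with edgeR or limma-voom and 4 with DESeq2 (3.64% of tested genes). With edgeR 7 had an unadjusted p under 0.05, all higher, as had 5.46% of tested genes. Thy1, the marker of the sort, had an estimate of -0.016 and Gata3 of 0.12, both with overlap. The B cell markers summed to 62.2, 84.1 and 86.1 CPM in WT and to 42.6, 40.3 and 39.2 CPM in RBM3KO. Of 5 tested, 3 had no overlap (18.9% of tested genes), and DESeq2 alone called 1, Cd79a. The part of ILC or B cell content in the Ccl1 values was not tested.

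Ccl5, also called RANTES, stood at 112, 155 and 96.3 CPM in WT and at 81.2, 71.8 and 98.9 CPM in RBM3KO. WT replicate 2 is the highest of the 6, and the genotypes overlap only through WT replicate 3 and RBM3KO replicate 3, which differ by less than 3 CPM. The means were 121 ± 30.5 and 84.0 ± 13.8 CPM (SD, n = 3 each). Ccl5 thus had a log2 fold change of -0.53 ± 0.19 (SE; adjusted p = 0.272 with edgeR), with a 95% interval from -0.95 to -0.10, that is from 0.516 to 0.930 times the WT level. Without WT replicate 2 the estimate was -0.31 (edgeR adjusted p = 0.636).

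Xcl1 stood at 18.8, 28.0 and 21.0 CPM in WT and at 17.7, 12.1 and 11.2 CPM in RBM3KO. All 3 RBM3KO libraries lie below all 3 WT libraries, with RBM3KO replicate 1 close to WT replicate 1. The means were 22.6 ± 4.77 and 13.7 ± 3.56 CPM (SD, n = 3 each), which gave a log2 fold change of -0.72 ± 0.32 (SE; adjusted p = 0.390 with edgeR), with a 95% interval from -1.43 to -0.02. Xcl1 was among the steadier genes at its level, since 32.6% of 3285 tested genes of similar mean varied less within a genotype. The estimate lay between -0.96 and -0.54 when each library was left out in turn, with the smallest size without WT replicate 2. Ccl5 counts were 4.58 to 8.86 times those of Xcl1 in the 6 libraries.

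NK cells and ILC1s are known to make both Ccl5 and Xcl1, and 7 of their 8 tested markers had an estimate below 0, while that of Ncr1 was 0.11. Of these 8, from 10 listed, 0 passed the test with edgeR, DESeq2 or limma-voom, 4 had an unadjusted p under 0.05, all lower (Nkg7, Prf1, Klrb1c and Klre1; 6.87% of tested genes were lower at that level), and the median log2 fold change was -0.68. Their summed level (CPM of the total count, without TMM) was 370, 656 and 294 in WT and 314, 269 and 248 in RBM3KO. WT replicate 2 is the highest library for this sum, for Ccl5 and for Xcl1, and RBM3KO replicates 2 and 3 are the lowest for the sum and for Xcl1. The order differs elsewhere. RBM3KO replicate 3 has the lowest sum but the highest Ccl5 level of the RBM3KO libraries (98.9 CPM), above WT replicate 3 (96.3 CPM). WT replicate 3 lies below RBM3KO replicate 1 for the sum and above it for Xcl1. Klra4 and Klra8 were not found in the table. The part of these cells in the Ccl5 and Xcl1 values was not tested, and in bulk samples fewer cells of a type and less RNA per cell cannot be told apart.

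**Figure D2:**
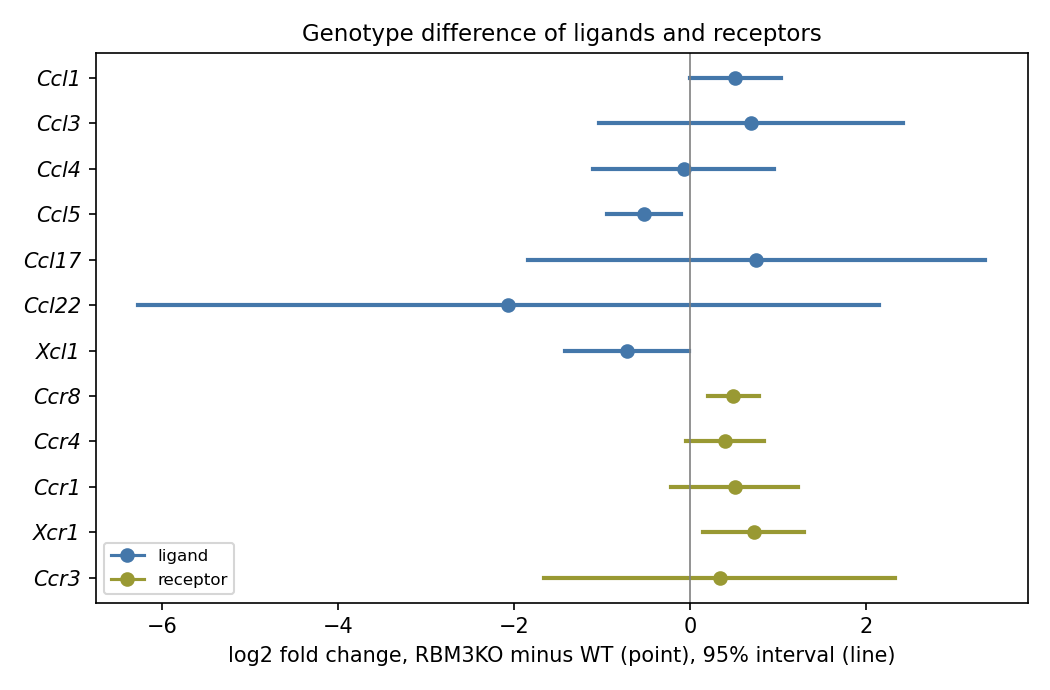
Log2 fold change, RBM3KO minus WT, of the 7 ligands (blue) and of 5 of their receptors (olive). Points are edgeR estimates from 3 libraries a genotype and lines are 95% intervals without adjustment for the number of genes. The interval of Ccl22 runs from -6.28 to 2.14 and that of Ccl1 from -0.01 to 1.03.

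Ccl4, or MIP-1β, had no net difference in this estimate and a wide spread. It stood at 13.8, 34.7 and 23.8 CPM in WT and at 14.4, 40.8 and 13.3 CPM in RBM3KO. The highest and the lowest library are both RBM3KO, and replicate 2 is the highest in each genotype. Its estimate was -0.07 ± 0.47 (log2, SE; adjusted p = 0.980 with edgeR), with a 95% interval from -1.10 to 0.95, so a level 0.466 or 1.94 times that of WT lies at its ends. Its sign turned without WT replicate 2 (0.28), RBM3KO replicate 1 (0.18) or RBM3KO replicate 3 (0.19), while without RBM3KO replicate 2 it was -0.80. Ccl4 varied more within a genotype than 96.0% of 3368 tested genes of similar mean.

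Ccl3, or MIP-1α, the neighbour of Ccl4 on chromosome 11, was scarcer and did not follow it from library to library. Its counts were 58, 53 and 33 in WT and 100, 81 and 19 in RBM3KO, or 4.29, 3.12 and 1.29 CPM and 6.52, 4.84 and 2.56 CPM. RBM3KO replicate 1 is highest for Ccl3, while it is among the 3 lowest for Ccl4, and WT replicate 3 is lowest for Ccl3 alone. Ccl4 counts were 3.22, 11.2 and 18.5 times those of Ccl3 in WT and 2.20, 8.44 and 5.21 times in RBM3KO. For Ccl3 the estimate was 0.69 ± 0.78 (log2, SE; adjusted p = 0.833 with edgeR), with a 95% interval from -1.04 to 2.41. Leaving out WT replicate 3 gave 0.33, leaving out RBM3KO replicate 1 gave 0.36, and leaving out WT replicate 1 gave 1.08.

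Ccl17, or TARC, was close to the detection floor in 2 libraries. Its counts were 7, 36 and 64 in WT and 5, 84 and 25 in RBM3KO, or 0.517, 2.12 and 2.51 CPM and 0.326, 5.02 and 3.36 CPM. Replicate 1 is the lowest in each genotype, and the highest library, RBM3KO replicate 2, held 15.4 times the CPM of the lowest. Exact Poisson intervals (95%, counting error only) run from 0.106 to 0.761 CPM in RBM3KO replicate 1 and from 4.00 to 6.21 CPM in RBM3KO replicate 2. They take each read as a separate molecule, while PCR copies are counted in these libraries, so they may be too narrow. Whether sampling of molecules spans that gap was not tested. The estimate was 0.75 ± 1.18 (log2, SE; adjusted p = 0.892 with edgeR), with a 95% interval from -1.85 to 3.35. It was 0.09 when RBM3KO replicate 2 was left out and 0.33 for WT replicate 1, with 1.13 for WT replicate 3 and 1.28 for RBM3KO replicate 1.

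Ccl22, or MDC, was found in 4 of the 6 libraries. Its counts were 16, 95 and 2 in WT and 0, 26 and 0 in RBM3KO, or 1.18, 5.58 and 0.0783 CPM in WT and 1.55 CPM in RBM3KO replicate 2. A count of 0 has a floor of 3 counts, or 0.196 CPM in RBM3KO replicate 1 and 0.404 CPM in RBM3KO replicate 3. WT replicate 2 held most of the reads, while WT replicate 3, the deepest library, lay under its own floor of 3 counts (0.117 CPM). The fit gave -2.07 ± 1.91 (log2, SE; adjusted p = 0.773 with edgeR), with a 95% interval from -6.28 to 2.14, and it was -0.23 without WT replicate 2. Without RBM3KO replicate 2 no RBM3KO count of Ccl22 is left, and the fitted value there (-8.18, edgeR adjusted p = 0.349) is no bound. Ccl17 and Ccl22 share a receptor and a locus, but their order over the libraries differed: RBM3KO replicate 3 held 25 Ccl17 counts and none of Ccl22.

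Markers of macrophages and monocytes differed widely from library to library. Their sum was 32.6, 325 and 661 CPM of the total count in WT and 9.34, 399 and 191 CPM in RBM3KO, mostly Chi3l3 and Lyz2. WT replicate 1 and RBM3KO replicate 1 are the lowest for this sum and for Ccl17. Of 7 tested markers of 10 listed, 0 passed with edgeR, DESeq2 or limma-voom (0 also at an unadjusted p under 0.05), and the median log2 fold change was -0.93. Cd14, Emr1, Mrc1, Fcgr1, Siglec5 and Marco were at 0 in WT replicate 1, and Cd14, Cd68, Csf1r, Mrc1, Fcgr1 and Marco in RBM3KO replicate 1. Such zeros were not particular to these libraries. Emr1, Csf1r, Siglec5 and Marco were also at 0 in WT replicate 3, which had the highest sum. Csf1r was highest in WT replicate 1, at 2.88 CPM. The dendritic cell markers summed to 20.9 to 33.8 CPM, with the genotypes overlapping. Of these, Flt3 was at 0 in all RBM3KO libraries and at 2.37, 1.41 and 0.117 CPM in WT, Cd209a was at 0 in 4 libraries, and Clec9a was not found in the table. Zbtb46, a transcription factor of dendritic cells, went the other way by estimate, at 8.94, 8.11 and 10.8 CPM in WT and 23.4, 9.61 and 14.8 CPM in RBM3KO (0.77 on the log2 scale, edgeR adjusted p = 0.479). Of 5 tested dendritic cell markers 0 passed with any of the 3 tools (0 also at an unadjusted p under 0.05), with 2 estimates above 0, 3 below and a median of -0.29. The part of these cells in the Ccl17 and Ccl22 values was not tested.

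**Figure D3:**
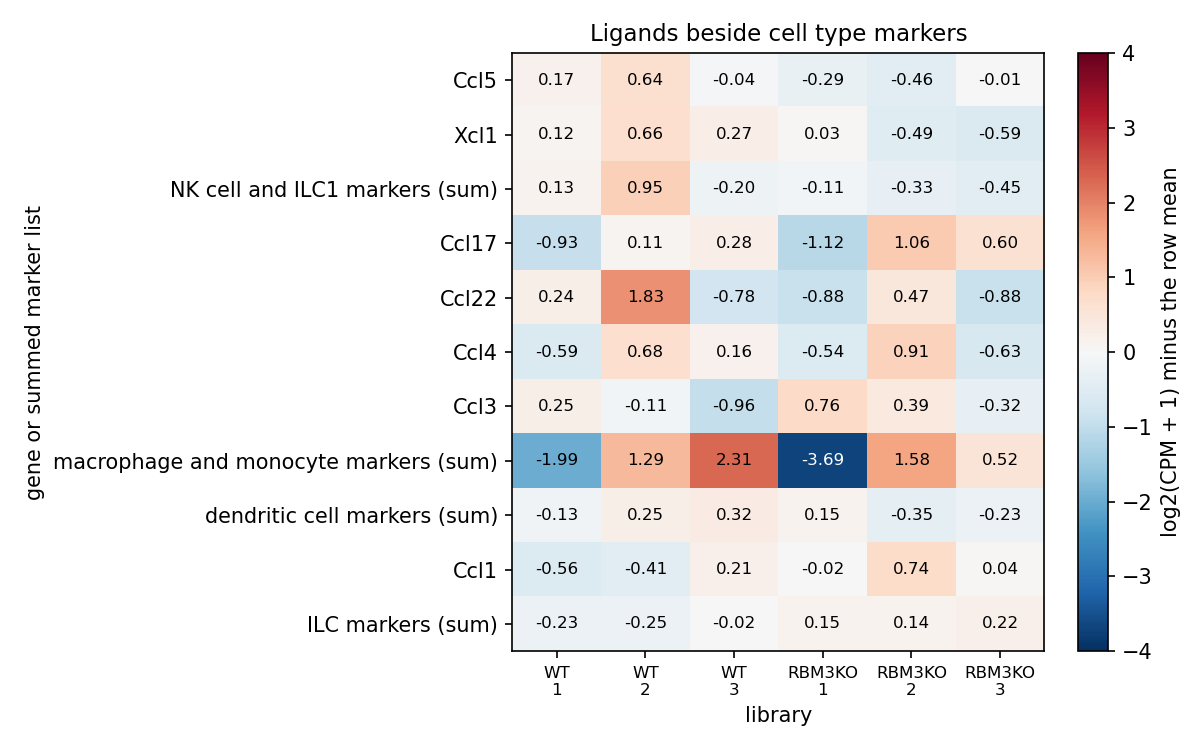
The 7 ligands beside the summed markers of 4 cell types in each library. Columns are libraries with their replicate number, rows are a ligand (TMM-scaled CPM) or a summed marker list (CPM of the total count), and colours and printed values are log2(CPM + 1) minus the row's mean. Ccl17 and the macrophage and monocyte sum are lowest in replicate 1 of each genotype, and Ccl5, Xcl1 and the NK cell and ILC1 sum are highest in WT replicate 2.

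The order of the ligands by CPM per kb of transcript, averaged over the 6 libraries, was Ccl1 (400.3), Ccl5 (193), Ccl4 (35.6), Xcl1 (34.7), Ccl3 (4.92), Ccl17 (4.49) and Ccl22 (0.632). Ccl1 ran from 259 to 641 CPM per kb and Ccl5 from 135 to 291, so these neighbours overlap over libraries, and in WT replicate 2 Ccl5 (291) was level with Ccl1 (288). Ccl4 (20.2 to 61.9) and Xcl1 (21.4 to 53.5) overlap each other, and so do Ccl3 (1.69 to 8.52) and Ccl17 (0.635 to 9.76). Ccl22 (0 to 2.52) overlaps both of these. No library of Ccl4 or Xcl1 reached the lowest of Ccl5, or fell to the highest of Ccl3 and Ccl17.

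Ccl1 and Ccl5 together made up 83.2% to 91.8% of the summed CPM per kb of the 7 ligands in a library. The share of Ccl1 was 48.7%, 41.3% and 62.7% in WT and 63.4%, 73.0% and 62.3% in RBM3KO. WT replicate 3 and RBM3KO replicate 3 meet, so the genotypes overlap. The count of Ccl1 over that of Ccl5, a ratio that does not depend on how libraries are scaled, was 1.20, 0.954 and 2.37 in WT and 2.39, 4.59 and 2.04 in RBM3KO. It was chosen after the values were seen and was not tested. The summed level itself was 533, 696 and 708 CPM per kb in WT and 594, 878 and 630 in RBM3KO, again with overlap.

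Receptors of these ligands were measured in the same cells. Of the 7 receptors reported here 6 were tested, 0 passed with edgeR, and 2 had an unadjusted p under 0.05, both higher in RBM3KO (Ccr8 and Xcr1), as had 5.46% of tested genes. DESeq2 called 1 of them, Ccr8 (3.64% of tested genes), and limma-voom 0. The estimate was above 0 for each of these 6, with a median of 0.495, and 2 had no overlap between the genotypes, both higher in RBM3KO, as had 8.43% of tested genes. Ackr1, a scavenging receptor, was not found in the table.

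Ccr8, the receptor of Ccl1, stood at 824, 769 and 999 CPM in WT and at 1252, 1002 and 1378 CPM in RBM3KO. All RBM3KO libraries lie above all WT libraries, though WT replicate 3 and RBM3KO replicate 2 are nearly level. Ccr8 had a log2 fold change of 0.49 ± 0.13 (SE; adjusted p = 0.129 with edgeR). With the replicate number as a block, Ccr8 passed the test (0.48, edgeR adjusted p = 0.0352), as it did with DESeq2 (0.49, DESeq2 adjusted p = 0.00644). Xcr1, the receptor of Xcl1 and known from dendritic cells, stood at 21.2, 24.7 and 24.5 CPM in WT and at 44.6, 44.5 and 26.5 CPM in RBM3KO. Its log2 fold change was 0.72 ± 0.26 (SE; adjusted p = 0.268 with edgeR), with no overlap, while the estimate of its ligand was below 0.

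The other receptors reported overlapped between the genotypes. Ccr4, which binds Ccl17 and Ccl22, stood at 80.0, 73.3 and 64.7 CPM in WT and at 126, 86.5 and 73.2 CPM in RBM3KO (log2 fold change 0.39, edgeR adjusted p = 0.472), and the estimate was 0.14 without RBM3KO replicate 1. Ccr1 had 0.504 (log2; adjusted p = 0.615 with edgeR) at 19.8 to 53.3 CPM, with 1.03 without WT replicate 2 and 0.24 without WT replicate 1. Ccr3, the eotaxin receptor that also binds Ccl5, ran from 0.538 CPM in RBM3KO replicate 3 to 15.3 CPM in RBM3KO replicate 1. Ccbp2, the decoy receptor now named Ackr2, was at 0 in 3 libraries and at most 3.22 CPM.

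**Figure D4:**
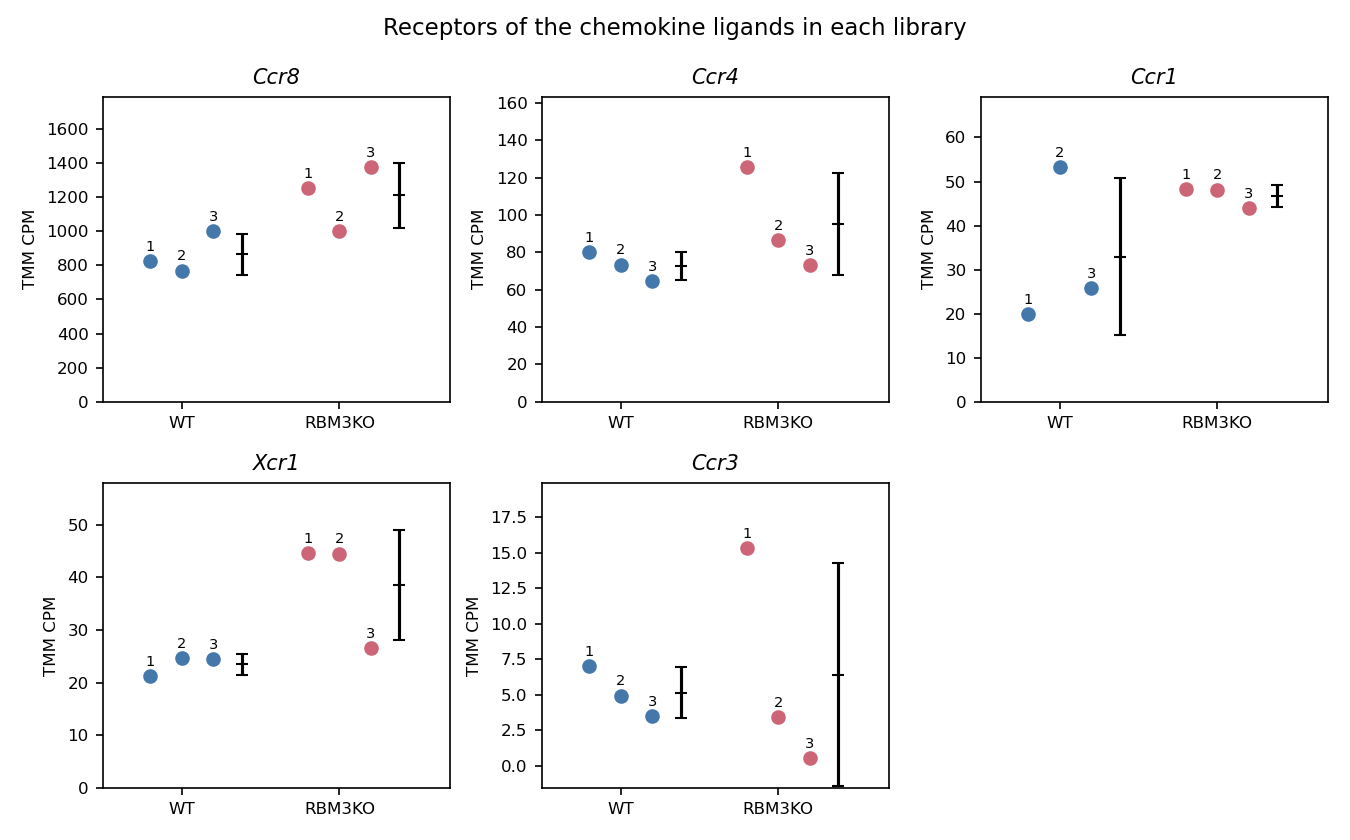
Level of 5 receptors of the ligands in the 6 libraries. The vertical axis is TMM-scaled CPM on a linear scale of its own in each panel, points are libraries with their replicate number, and the black bar is the mean ± SD of the 3 libraries of a genotype. Ccr8 and Xcr1 have no overlap between WT and RBM3KO.

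Of the 33 other chemokine ligands listed, 24 were in the table and 15 were tested. With edgeR 0 passed (1.25% of tested genes), and 1, Cxcl3, had an unadjusted p under 0.05, higher in RBM3KO, as had 5.46% of tested genes. DESeq2 called Cxcl3 (3.64% of tested genes) and limma-voom called 0. The median log2 fold change of the 15 was 0.19, with 11 above 0 and 4 below. Of the 15, 0 had no overlap between the genotypes, beside 18.9% of tested genes. The neutrophil attractants Cxcl2 and Cxcl3 came next to Ccl1 by mean level per kb, at 352 CPM per kb (147 to 595 over the libraries) and 329 CPM per kb (233 to 566). Both ranges overlap that of Ccl1, and each of these ligands was above Ccl1 in 3 libraries and below it in 3. Cxcl3 stood at 273, 237 and 246 CPM in WT and at 575, 259 and 417 CPM in RBM3KO, with RBM3KO replicate 2 inside the WT range (log2 fold change 0.73, edgeR adjusted p = 0.180). Without that library it passed the test (0.98, edgeR adjusted p = 0.0334), and without RBM3KO replicate 1 it was 0.42 (edgeR adjusted p = 0.409). With DESeq2 it passed on all libraries (0.73, DESeq2 adjusted p = 0.0127). The estimate of Cxcl2 was 0.56 (log2; edgeR adjusted p = 0.781), Cxcl10, an interferon-induced ligand, -0.08 (0.940), and Ccl24, or eotaxin-2, 0.56 (0.489). Cxcl2 ran from 0.22 without RBM3KO replicate 1 to 0.93 without RBM3KO replicate 2, and Ccl24 was 0.28 without WT replicate 1. Cx3cl1, which lies between Ccl22 and Ccl17 on chromosome 8, stood at 6.35 to 11.8 CPM (-0.18, edgeR adjusted p = 0.938). It was in all 6 libraries, also in those without Ccl22.

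For each ligand, the genes with the most similar profile over the 6 libraries were found among 7604 tested genes at a mean of at least 10 CPM. Likeness was the root mean square difference between profiles of log2(CPM + 1), each centred on its own mean, so 0 is an identical profile. With so many candidates over 6 libraries some close profiles are to be found for any gene, and these are a description only. Nearest to Ccl5 was Fcer1g, a signalling adaptor of NK cells and myeloid cells (0.11), at 49.6, 64.5 and 50.5 CPM in WT and at 35.0, 33.7 and 43.9 CPM in RBM3KO, followed by Pdcd7 (0.14). Nearest to Ccl22 were Rtp4 (0.27) and Parp12 (0.28), both interferon-induced genes, which shared its highest library, WT replicate 2. Ccl1 was closest to Mmp25, a membrane-anchored metalloproteinase (0.12), and to Snap23, a protein of vesicle fusion (0.14). Xcl1 was closest to Rab40c (0.09) and Chchd10 (0.13), Ccl3 to Stx2 (0.15) and Mus81 (0.15), Ccl4 to 1110037F02Rik (0.22) and Mtmr7 (0.25), and Ccl17 to Hps3 (0.22) and Papolg (0.28).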

How the data were processed

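The authors deposited raw read counts per gene symbol, 1 column per sample, with no pooling and 0 columns of other samples. Per the submitters' processing notes the tools were Bowtie 1.0.0, STAR 2.6.1c and featureCounts 1.6.5 with the build mm10, given with no role or order. The sources used here give neither the annotation nor the strand setting. According to the labels' protocols, polyA RNA was amplified by Smart-seq2 and made into Nextera XT libraries. In standard form these mark no strand and carry no molecular identifiers, so PCR copies are counted. The Poisson intervals cover counting error only and take each read as a separate molecule. The intervals of the log2 fold changes include the spread between libraries.

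The 6 samples were grouped by the titles in the labels. Genes were filtered with filterByExpr (11382 of 14416 kept), scaled by TMM and tested with edgeR 4.0.16 in R 4.3.3 (robust quasi-likelihood fit, WT against RBM3KO, no covariate, Benjamini-Hochberg adjustment). The SE is the size of the log2 fold change divided by the square root of F, and 95% intervals use the fit's degrees of freedom. DESeq2 1.42.0, limma-voom (limma 3.58.1), 3 other scalings, 2 other filters, a non-robust fit, a replicate block and leaving out each library were run as alternatives. The edgeR, DESeq2 and limma-voom steps were tested on simulated data. Each library counts as 1 sample. No pair of libraries agreed within Poisson counting noise (chi-square per degree of freedom 21.5 or more). PCR copies can raise that value, so it cannot tell separate animals from repeat libraries of the same RNA. The members and lists were chosen with earlier results of these data known. Named genes are the members, Rbm3, list genes past the threshold, the 4 most abundant other ligands and receptors, those without overlap, and the 2 nearest profiles per member; other list genes were named after their values were seen. Transcript sequences, lengths and coordinates are from GENCODE M21 (coding transcript with the longest coding sequence), matched by symbol. A 3′ UTR was matched for 87.0% of tested genes, which form the background of the motif shares. Some results on a receptor and a sequence stretch are not reported here.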

Additional observations from a re-analysis of the deposited data

How the results depend on the processing

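None of the 7 ligands passed the threshold under any of the 15 alternatives to the reported fit, though a filter of at least 10 CPM in 3 libraries left only Ccl1, Ccl4, Ccl5 and Xcl1 to test. Of 102 ligand estimates under alternatives, 99 kept their sign, and the 3 others were those of Ccl4 without WT replicate 2 (0.28), RBM3KO replicate 1 (0.18) and RBM3KO replicate 3 (0.19), with -0.80 without RBM3KO replicate 2 as the lowest. Leaving out libraries in turn gave -0.16 to 0.061 for Cxcl10, above 0 without WT replicate 2 (0.06) and RBM3KO replicate 2. Over all genes, 142 passed with edgeR (Rbm3 included) and 414 with DESeq2, and the cause of that gap was not tested. Leaving out a library gave 12 to 99 calls, from fewer samples. Ccl17 had a log2 fold change of 0.02 with limma-voom and 0.09 without RBM3KO replicate 2, and Ccl3 1.15 with limma-voom. With the replicate number as a block 149 genes and 0 ligands passed, Ccl22 moved to -3.44, and Ccr8 was called. The labels do not say that a number marks a shared animal or batch, so the reported fit has no block. Over all tested genes, same-numbered samples deviated from their group means with correlations of 0.06, 0.06 and 0.01. Differently numbered samples had -0.07 to 0.02. Such a correlation cannot exclude something shared that acts on few genes. With the block the SE fell from 0.51 to 0.13 for Cxcl2 (edgeR adjusted p = 0.107) and from 0.47 to 0.31 for Ccl4. It rose from 0.19 to 0.21 for Ccl5 and from 0.32 to 0.35 for Xcl1. Whether the numbers mark something shared was not tested further. RBM3KO replicate 3, the shallowest library, allows up to 0.404 CPM at a count of 0, so Ccl22 below that level was not detectable there.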

Other observations

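Ccl6 and Ccl9, a pair of CC chemokines that lie between Ccl5 and Ccl3 on chromosome 11 and are known from macrophages, were looked at after their values were seen. Ccl6 stood at 5.25, 23.6 and 86.6 CPM in WT and at 6.52, 73.9 and 14.0 CPM in RBM3KO, with replicate 1 lowest in each genotype, as for Ccl17. Ccl9 stood at 2.29, 7.23 and 5.87 CPM in WT and at 4.89, 20.6 and 4.31 CPM in RBM3KO, with RBM3KO replicate 2 the highest. Neither passed the test (edgeR adjusted p = 0.966 for Ccl6 and 0.668 for Ccl9). Ccl2, the main attractant of monocytes, had at most 11 counts in a library.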
